A study of Mus musculus with 15 samples.

Results

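The comparison of blackberry gold nanoparticles (BLA-A) with plain blackberry extract (BLA) sets 2 RNA-seq libraries of 4T1 cells side by side, at the same dose, out of the 5 libraries of the series. Its members were chosen by condition, as the 3 count columns of BLA-A and the 3 of BLA, 6 of 15 columns in all. The 3 columns of a condition are read subsets of 1 library, so they were averaged, and the comparison has no replicate and no test. 4T1, labelled wild type, is a mouse mammary carcinoma line grown in RPMI1640 with serum, a model of triple-negative breast cancer that is a single line in culture, without stroma or immune cells. BLA cells received an ethanol extract of freeze-dried blackberry. BLA-A cells received gold particles formed by heating the same kind of extract with a gold salt, so the extract coats the particle. The other 3 libraries, given beside the results, were untreated 4T1 cells, cells given blueberry extract (BLU) and cells given blueberry gold nanoparticles (BLU-A). Treatment started a day after seeding in the 4 treated conditions. The same dose refers to the concentration of extract or of particles, and unbound berry compounds were washed off the particles. The amount of berry compounds may therefore differ between BLA and BLA-A. There was no library of cells given gold particles without berry. The gold, the altered delivery and the amount of the berry compounds cannot be told apart.

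Blackberry extract carries polyphenols such as anthocyanins, ellagitannins and phenolic acids. Small polyphenols act in the medium and enter cells by diffusion or transporters, whereas gold particles are taken up by endocytosis and gather in endosomes and lysosomes. Cells that handle particles or reactive compounds are known to draw on the NRF2 antioxidant genes, metal-binding metallothioneins, heat shock proteins, the lysosome and immediate early genes, which are the genes described below. The question the comparison addresses is what the particle form adds to, or takes away from, the expression profile under the extract.

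Mean column totals were alike in all 5 libraries, at 25613711 to 26956308 counts. Taken as the detection floor, 3 counts equal 0.111 to 0.117 CPM before TMM scaling (CPM are counts scaled to a common library total). These totals are of read subsets and do not give the sequencing depth of a library. The authors report a higher read total for BLA-A than for BLU-A. The BLA-A library stood apart in composition. TMM factors rescale each library so that most genes are level between libraries. Its factor was 0.856, against 1.02 for BLA and 1.06, 1.04 and 1.04 for untreated, BLU and BLU-A cells. It had 16106 genes with at least 10 counts, the fewest of the 5, and BLA had 17951, while BLA had the fewest genes above 0, 21311 against 24493 in BLA-A. With 1 library per condition, library preparation and treatment cannot be told apart in any value of BLA-A below. Intervals given below cover counting error only.

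Both libraries carried the epithelial profile of the line. Of 14 epithelial genes, 12 passed the expression filter, and their summed level was 1319 CPM in BLA and 2403 CPM in BLA-A. Krt5 was at 0 in all 5 libraries and Krt14 was under 1 CPM. Markers of other cell types were low except for Pdgfra. The summed level of 16 macrophage markers was 21.5 CPM in BLA and 32.7 CPM in BLA-A, most of it Cd14 and Cd68, and the defining markers Lyz2 and C1qb were at 0 in all 5 libraries. The 11 T and B cell markers summed to 1.45 and 0.365 CPM. Fibroblast and endothelial markers summed to 107 and 109 CPM, of which Pdgfra alone gave 101 and 104. In a bulk library, fewer cells with a transcript and less of it per cell cannot be told apart.

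Of 17594 genes with at least 1 CPM in any of the 5 libraries, 4330 (24.6%) differed between BLA-A and BLA by more than 1 on the log2 scale, counted here as called. Folds are log2 ratios of TMM-normalized CPM plus 0.5, which understates the change of low genes. 2346 genes (13.3%) were called higher in BLA-A and 1984 (11.3%) lower, and the typical gene differed by 0.55 in size (median). Of the 10 pairs of libraries this one had the most called genes. BLA-A against BLU had 4172, against untreated cells 3782 and against BLU-A 3379. The other 6 pairs, which leave BLA-A out, had 1164 to 2865. The corresponding blueberry pair, BLU-A against BLU, had the fewest, 1164 (6.62%), with 506 (2.88%) higher and 658 (3.74%) lower. Pairs share libraries, so these counts are not independent. Scaling by total counts in place of TMM moved the median of all genes by -0.22 and the higher share of called genes from 54.2% to 36.2%, so a call close to the threshold depends on the scaling. Log2 folds below are relative to the TMM scale.

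**Figure D1:**
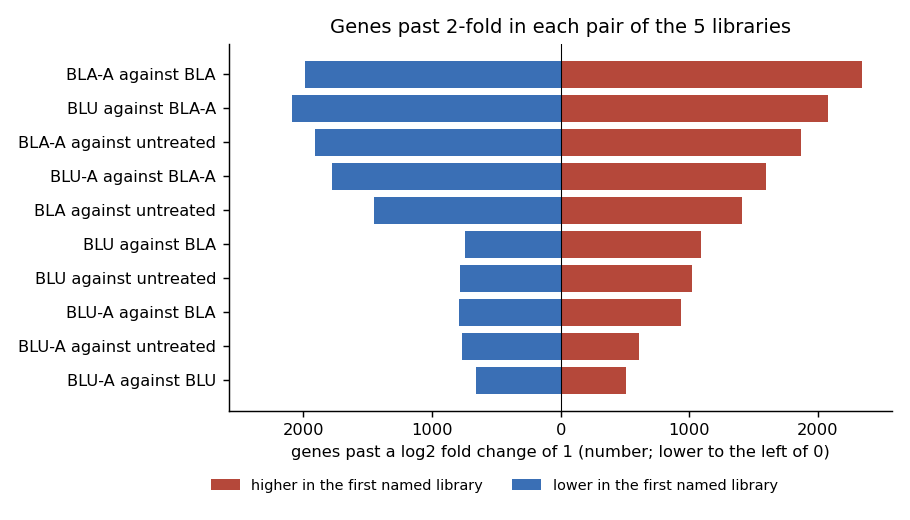
Genes called in each of the 10 pairs of libraries (x axis, number of genes), with those higher in the first named library to the right of 0 and those lower to the left. The 4 pairs that include BLA-A are the longest bars, and BLA-A against BLA is the longest, with 2346 higher and 1984 lower.

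The fold of a gene moved with its length and base composition. Gene lengths run from first to last exon, introns included, and reads were counted on the whole gene. Genes under 3 kb had a median log2 fold change of 0.38, with 32.3% called higher in BLA-A, and genes over 300 kb had -0.65, with 30.6% called lower. The bins between were in order, at 0.37, 0.15, -0.03 and -0.26. Transcripts over 58% GC had a median of 0.51 and those under 42% GC had -0.17. The blueberry pair moved the same way on a smaller scale, from 0.17 in genes under 3 kb to -0.24 in genes over 300 kb, and the pairs share no library. Protein-coding genes had a median of 0.07 and long noncoding RNA genes -0.27, with 513 of 2497 called lower. Because short, GC-rich and long, AT-rich genes differ in this way as a whole, each list below is also given after centring. This means that from each gene the median fold of genes of like length and GC was subtracted, using 10 length bins and 5 GC bins. After centring, 1578 of 16308 genes were called higher and 1807 lower, which is the background for the centred list counts. RNA integrity values could not be tied to each library here, and the part of RNA integrity in this gradient was not tested. Lower calls were also concentrated in genes of low level, with 24.0% of genes with a mean of 1 to 3 CPM called lower in BLA-A and 2.09% of genes over 100 CPM, while the share called higher was 12.0% and 10.9%. Of the 16308 genes with a position in the annotation, 12405 overlap an annotated gene on the opposite strand, Cebpb among them, and could hold reads of it.

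Both libraries took part in the difference. Of the 2346 genes called higher in BLA-A, BLA-A was the highest of the 5 libraries in 2139, BLA was the lowest in 1462, and both held in 1273. Of the 1984 called lower, BLA-A was the lowest in 1456, BLA the highest in 1255, and both held in 784. Genes chosen for a difference between these libraries tend to have them at the ends, so these counts only describe the calls.

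**Figure D2:**
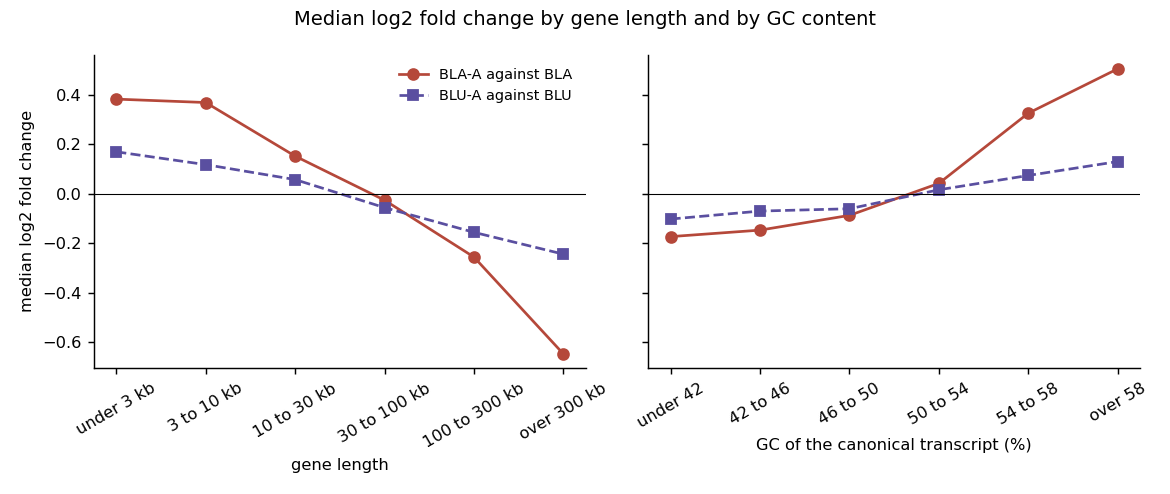
Median log2 fold change (y axis) of genes binned by length, left, and by GC content of the canonical transcript in percent, right, for BLA-A against BLA (solid line, circles) and BLU-A against BLU (dashed line, squares). In both pairs the median is lower in longer genes and higher in genes of higher GC, and the blackberry line spans from 0.38 to -0.65 over length.

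Lipid synthesis genes were among the lists with the highest medians. Cells make both cholesterol and fatty acids from acetyl-CoA, both under SREBP transcription factors, which are released when membranes hold little sterol. Of 23 sterol genes, 14 were called higher in BLA-A and 1 lower, with a median log2 fold change of 1.19 beside 0 over all genes and 0.18 for the same genes in the blueberry pair. The member called lower was at -2.27, larger in size than the highest fold of the list, 2.24. After centring for length and GC the counts were 14 and 1 and the median 1.09. Dhcr7, a reductase at the end of the pathway, was at 39.2 CPM in untreated cells, 25.7 in BLA, 102 in BLA-A, 28.7 in BLU and 41.0 in BLU-A, a log2 fold change of 1.97. BLA was the lowest of the 5 libraries and BLA-A the highest, so the fold has a part on either side of the untreated level. Tm7sf2, another sterol reductase, was at 3.95 CPM in BLA and 16.1 in BLA-A (1.90), and Mvd, which acts on mevalonate pyrophosphate, at 8.78 CPM in BLA and 31.3 in BLA-A (1.78). Srebf2, the sterol-responsive factor itself, was at 168 CPM in untreated cells, 152 in BLA, 449 in BLA-A, 148 in BLU and 177 in BLU-A (1.56), and here the other 4 libraries were close together. Sqle (0.49), Fdft1 (0.57) and Insig1 (0.17) stayed under the threshold.

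Fatty acid genes showed the same direction. 7 of 20 were called higher and 0 lower, with a median of 0.82, and 9 were called higher after centring. Fasn, fatty acid synthase, was at 704 CPM in untreated cells, 428 in BLA, 2188 in BLA-A, 553 in BLU and 616 in BLU-A, 5.11-fold (95% interval 5.01 to 5.21) higher in BLA-A than in BLA. Fads2, a desaturase, was at 116 CPM in untreated cells, 88.6 in BLA, 398 in BLA-A, 104 in BLU and 121 in BLU-A (2.16). Elovl1, which elongates saturated fatty acids, was at 12.5 CPM in BLA and 86.3 in BLA-A and at 12.9 to 14.4 CPM in the other 3 libraries (2.74). Srebf1, the factor that drives these genes, was at 72.0 CPM in untreated cells, 72.1 in BLA, 269 in BLA-A, 64.8 in BLU and 77.6 in BLU-A (1.89), and Scd1, the stearoyl-CoA desaturase, was at 171 CPM in untreated cells, 99.8 in BLA, 266 in BLA-A, 117 in BLU and 144 in BLU-A (1.41). In all 5 of these genes BLA-A was the highest library, as it was in 2139 of all 2346 genes called higher.

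**Figure D3:**
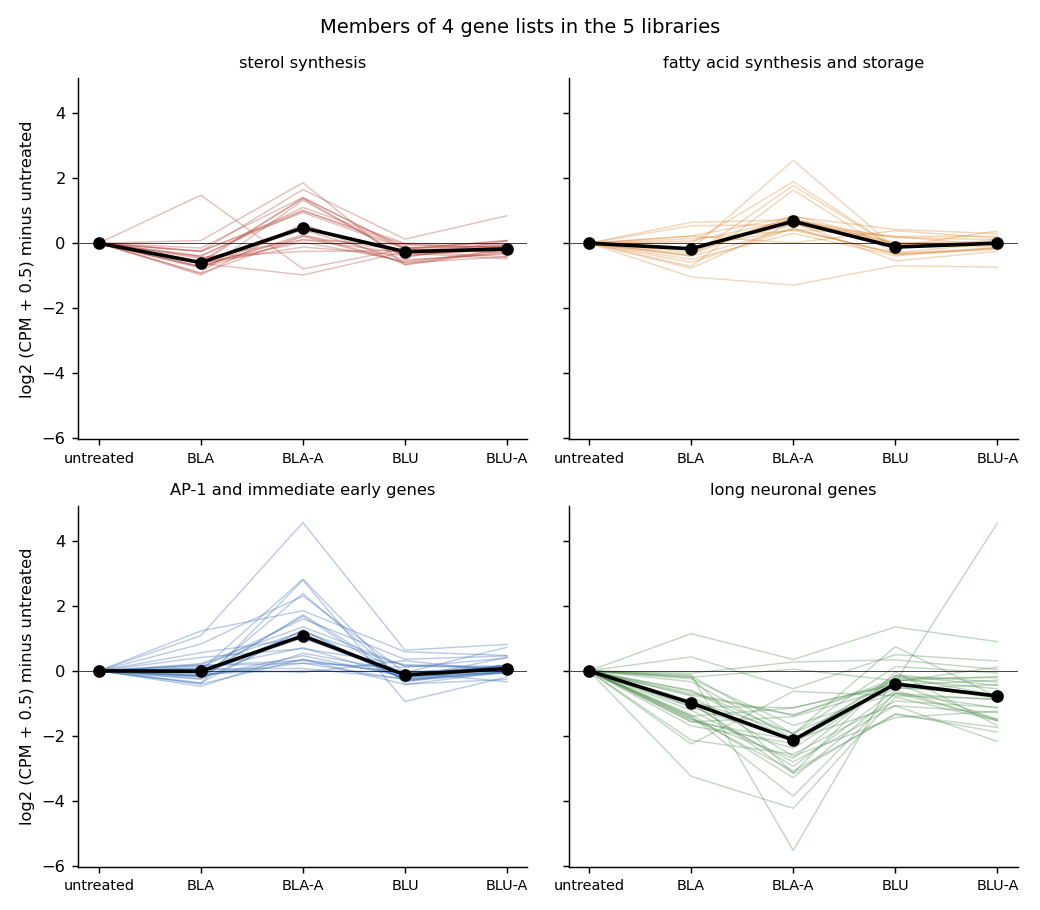
Members of 4 gene lists in the 5 libraries, each thin line 1 gene as log2 (CPM plus 0.5) minus its value in untreated cells, and the black line the list median. Sterol and fatty acid genes peak in BLA-A, as do the immediate early genes, and the long neuronal genes are lowest there.

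The SREBP factors bind the sterol regulatory element, searched here as TCACNCCAC on both strands in RefSeq promoter windows of 300 bases (250 before and 50 after the start, build GRCm38.p6, the first window by position of each gene). It was present in 1 of 15 sterol list promoters in the table, 0 of 15 fatty acid list promoters and 1.099% of 13284 promoters of expressed genes. The window with the match, shown because its gene belongs to the sterol list, is that of Hmgcs1 at chr13:119690101-119690400 on the plus strand, with the match in capitals.
Hmgcs1: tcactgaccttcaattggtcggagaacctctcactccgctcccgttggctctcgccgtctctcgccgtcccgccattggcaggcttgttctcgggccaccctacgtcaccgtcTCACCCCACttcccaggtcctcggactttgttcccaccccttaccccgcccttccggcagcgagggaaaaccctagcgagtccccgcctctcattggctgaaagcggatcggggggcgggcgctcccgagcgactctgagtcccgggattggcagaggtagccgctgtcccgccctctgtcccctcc
Hmgcs1, a synthase early in the pathway, was at 210.0 CPM in untreated cells, 124 in BLA, 225 in BLA-A, 169.5 in BLU and 150.3 in BLU-A, a log2 fold change of 0.86 that stayed under the threshold.

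Metal and antioxidant genes were higher in part. Metallothioneins bind zinc, copper and heavy metals including gold, and zinc transporters set the pool that the metal sensor Mtf1 reads. Of 10 genes in this list, 5 were called higher in BLA-A and 0 lower (median 0.94), and 2 were called higher after centring. The metallothioneins differed from each other. Mt2 was at 17.9 CPM in untreated cells, 12.8 in BLA, 33.6 in BLA-A, 15.9 in BLU and 8.66 in BLU-A (1.36). Mt1 was at 83.3 CPM in untreated cells, 74.2 in BLA, 64.7 in BLA-A, 69.5 in BLU and 42.9 in BLU-A, a log2 fold change of -0.20. The zinc importer Slc39a10 was at 76.4 CPM in untreated cells, 56.3 in BLA, 179.9 in BLA-A, 74.3 in BLU and 110.4 in BLU-A (1.67), the largest fold of the list, and Slc39a4 and Slc39a6, importers of the same family, were at 1.26 and 1.13. The zinc exporter Slc30a1, an Mtf1 target, was at 2.32 CPM in untreated cells, 1.38 in BLA, 4.74 in BLA-A, 0.849 in BLU and 0.997 in BLU-A (1.48).

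Mtf1 binds metal response elements, whose cores were searched as TGCACNC and TGCGCNC on both strands in the same windows. 5 of 7 promoters of the list in the table held at least 1, and so did 33.3% of promoters of expressed genes, so the short core is frequent. The windows of Mt2 (chr8:94172368-94172667), Mt1 (chr8:94178839-94179138) and Slc30a1 (chr1:191906531-191906830), all plus strand, are shown because Mt2 and Slc30a1 were called and Mt1 was not, with matches in capitals.
Mt2: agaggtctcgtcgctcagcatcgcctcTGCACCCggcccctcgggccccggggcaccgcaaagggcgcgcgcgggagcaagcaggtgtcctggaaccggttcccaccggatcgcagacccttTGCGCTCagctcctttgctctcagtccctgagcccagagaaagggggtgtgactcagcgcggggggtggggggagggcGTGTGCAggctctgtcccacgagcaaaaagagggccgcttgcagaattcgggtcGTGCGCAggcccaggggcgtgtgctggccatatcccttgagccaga
Mt1: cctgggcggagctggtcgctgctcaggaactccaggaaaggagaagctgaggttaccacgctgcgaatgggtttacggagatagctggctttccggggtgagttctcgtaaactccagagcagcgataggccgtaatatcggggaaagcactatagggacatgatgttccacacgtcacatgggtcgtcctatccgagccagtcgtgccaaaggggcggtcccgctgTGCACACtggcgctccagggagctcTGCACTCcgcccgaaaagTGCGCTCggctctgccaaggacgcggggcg
Slc30a1: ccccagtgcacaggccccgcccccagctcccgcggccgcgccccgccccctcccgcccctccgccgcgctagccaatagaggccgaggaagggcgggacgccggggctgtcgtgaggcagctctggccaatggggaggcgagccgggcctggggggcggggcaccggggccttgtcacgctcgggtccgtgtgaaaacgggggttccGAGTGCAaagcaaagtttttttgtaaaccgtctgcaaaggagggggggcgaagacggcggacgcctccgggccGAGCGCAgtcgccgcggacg
Mt2 holds 4 matches, Mt1 3 and Slc30a1 2. The presence of a match did not separate the called genes from Mt1.

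NRF2 is the factor that turns on glutathione, quinone reductase and NADPH genes when its inhibitor Keap1 is modified by reactive compounds. 11 of 29 of its targets and glutathione genes were called higher in BLA-A and 0 lower (median 0.54), with 7 higher after centring and 6 higher with scaling by total counts (median 0.29). Hmox1, heme oxygenase 1, was at 3.54 CPM in untreated cells, 7.43 in BLA, 23.9 in BLA-A, 3.86 in BLU and 4.89 in BLU-A (1.62). BLA was already above the untreated level there, and BLA-A was the highest library. Nqo1, the quinone reductase, was at 15.3 CPM in untreated cells, 9.82 in BLA, 27.8 in BLA-A, 10.1 in BLU and 12.7 in BLU-A (1.46). Pgd, of the pentose phosphate pathway that feeds NADPH, was at 72.1 CPM in BLA and 202 in BLA-A (1.48), and the mitochondrial superoxide dismutase gene Sod2 was at 20.3 CPM in BLA and 54.3 in BLA-A (1.40). Of 12 iron genes 2 were called higher and 1 lower, where 13.3% and 11.3% of all genes were, and the median was 0.25, or -0.00 with scaling by total counts. The ferrireductase gene Steap3 was at 10.7 CPM in BLA and 29.1 in BLA-A (1.40), Slc11a2, an iron importer, was at 0.99, and the ferritin genes pointed apart, with Ftl1 at -0.62 and Fth1 at 0.49. The other called iron genes were Hfe, higher at 2.55, and the iron exporter gene Slc40a1, lower at -1.82, both under 10 CPM. The aryl hydrocarbon receptor, which binds planar aromatic ligands including plant flavonoids, had 2 of 7 list genes called higher, Nqo1 again and the receptor repressor gene Ahrr (1.36), and 0 lower. Its main target Cyp1a1 was under the filter, and Aldh3a1 was at 27.5 CPM in untreated cells, 44.8 in BLA, 22.2 in BLA-A, 23.1 in BLU and 31.8 in BLU-A (-0.999, just short of the threshold).

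In the heat shock and proteasome lists the called members were higher in BLA-A; the immunoproteasome gene Psmb8, of the MHC list, was called lower and is given further on. Of 18 cytosolic heat shock genes, 7 were called higher and 0 lower (median 0.57), beside 13.3% and 11.3% of all genes. After centring 2 were called higher, near the share of all centred genes called higher. Cryab, a small heat shock protein, was at 11.7 CPM in untreated cells, 5.87 in BLA, 17.4 in BLA-A, 4.94 in BLU and 7.91 in BLU-A (1.49), and Hspe1, whose product is a mitochondrial co-chaperonin, was at 18.4 CPM in BLA and 52.1 in BLA-A (1.47). Hsp90ab1, the constitutive HSP90, was at 2159 CPM in untreated cells, 1539.8 in BLA, 3423 in BLA-A, 1637 in BLU and 1784 in BLU-A, 2.22-fold (95% interval 2.20 to 2.25) higher in BLA-A. Hspa1b, the inducible HSP70, was at 20.7 CPM in untreated cells, 20.3 in BLA, 56.7 in BLA-A, 17.6 in BLU and 18.4 in BLU-A (1.46), and its near-identical copy Hspa1a was under the filter, so reads between the pair are uncertain. 9 of 31 proteasome subunit genes were called higher and 0 lower (median 0.70, 0.47 centred), led by the catalytic subunit gene Psmb6, at 11.7 CPM in BLA and 64.3 in BLA-A (2.41), and by Psmb3 (2.25), Psmd3 (1.67) and Psmb2 (1.51). The proteasome list summed to 3271 CPM in untreated cells, 2331 in BLA, 3269 in BLA-A, 2654 in BLU and 2946 in BLU-A. Its median against untreated cells was -0.53 in BLA and 0.23 in BLA-A, so much of the fold came from a low level in BLA.

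The unfolded protein and integrated stress responses match protein load in the endoplasmic reticulum to folding capacity. 9 of 29 of their genes were called higher and 1 lower (median 0.58), with 4 and 2 after centring. Calr, the lectin chaperone calreticulin, was at 264 CPM in untreated cells, 212 in BLA, 1109 in BLA-A, 191 in BLU and 233 in BLU-A (2.38), and BLA-A stood far above the other 4. Sdf2l1 was at 3.32 CPM in untreated cells, 3.98 in BLA, 18.6 in BLA-A, 1.08 in BLU and 6.74 in BLU-A (2.09) and the disulfide isomerase gene Pdia4 was at 79.0 CPM in BLA and 240.1 in BLA-A (1.60). Hspa5, the abundant chaperone BiP, was lower in BLA-A at 2427 CPM in untreated cells, 2366 in BLA, 1702 in BLA-A, 1889 in BLU and 2113 in BLU-A (-0.47), under the threshold. Its overlapping neighbour Rabepk on the opposite strand was read at 0.935 of its level in BLA and 0.897 in BLA-A, so the pair of signals cannot be told apart with this counting. Of amino acid response genes, Shmt2 (1.44), Chac1 (1.43), Slc3a2 (1.29) and Slc7a5 (1.26) were called higher.

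Lysosome and uptake genes are of interest because particles end in this compartment. 12 of 37 lysosome and autophagy genes were called higher in BLA-A and 0 lower (median 0.49), and 7 after centring. Psap, the precursor of sphingolipid activator proteins, was at 133 CPM in untreated cells, 106 in BLA, 579.8 in BLA-A, 114 in BLU and 115 in BLU-A (2.45). Atp6ap1, an accessory subunit of the proton pump, was at 42.1 CPM in untreated cells, 33.1 in BLA, 171 in BLA-A, 34.9 in BLU and 33.8 in BLU-A (2.35). Neu1, the lysosomal sialidase, was at 5.05 CPM in BLA and 27.5 in BLA-A (2.33), and Map1lc3a, an LC3 gene of autophagosomes, was at 6.13 CPM in untreated cells, 1.58 in BLA, 17.7 in BLA-A, 5.38 in BLU and 4.25 in BLU-A (3.13), where BLA was the lowest library. Further called members were the membrane protein gene Lamp1 (1.66), the protease gene Ctsd (1.64) and the cholesterol exporter gene Npc1 (1.32). Scarb2, whose product carries glucocerebrosidase to lysosomes, is not in the list and was named by its difference in CPM; it was at 1119 CPM in untreated cells, 1078 in BLA, 511 in BLA-A, 1069.5 in BLU and 1040.1 in BLU-A, 2.11-fold (95% interval 2.06 to 2.16) lower in BLA-A. Of 30 endocytosis genes, 8 were called higher and 0 lower (median 0.64). They included the clathrin adaptor gene Ap2s1 (1.66), the caveolar coat gene Cavin1 at 238 CPM in untreated cells, 168 in BLA, 505 in BLA-A, 168 in BLU and 195 in BLU-A (1.58), Rab5c of early endosomes (1.42) and the scavenging receptor gene Lrp1 at 520.0 CPM in untreated cells, 591 in BLA, 1523 in BLA-A, 499 in BLU and 471 in BLU-A (1.36). The centred median of this list was 0.27, less than its uncentred value.

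**Figure D4:**
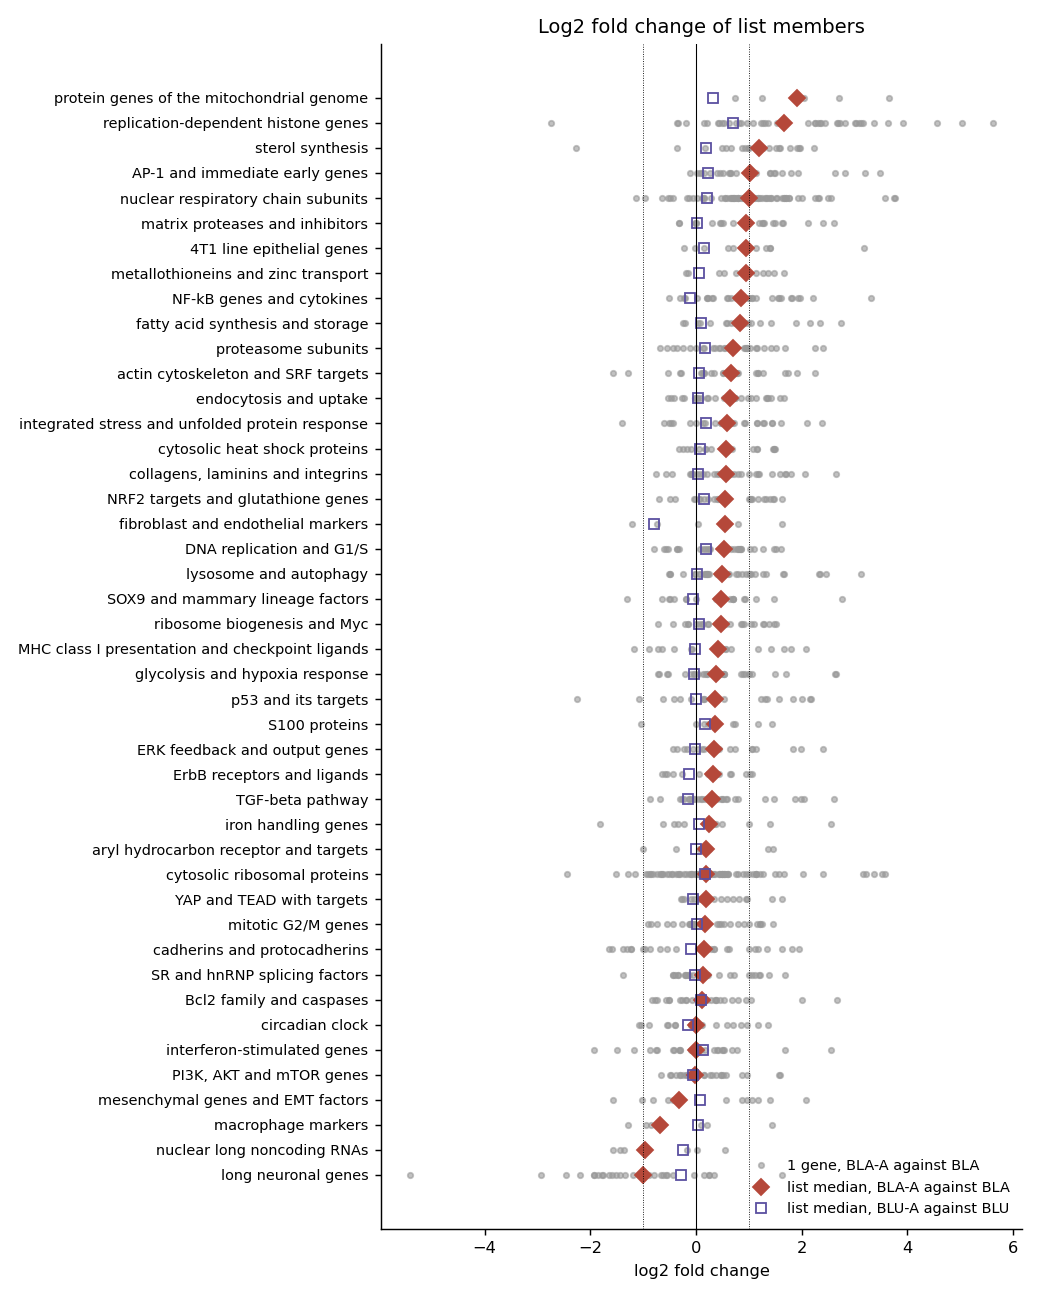
Log2 fold change of BLA-A against BLA (x axis) for each expressed member (grey points) of the gene lists with at least 7 expressed members, with the list median (red diamonds) and the median of the same genes in BLU-A against BLU (open squares). Dotted lines mark a log2 fold change of 1 in either direction. Medians run from 1.91 for the mitochondrial genome to -1.01 for the long neuronal genes, and most open squares lie near 0.

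Of 30 genes of glucose use and the oxygen response, 5 were called higher and 0 lower (median 0.38), near the 13.3% of all genes called higher, and 4 and 0 with scaling by total counts (median 0.15). Ddit4, an mTORC1 inhibitor induced by energy stress, was at 17.9 CPM in untreated cells, 15.4 in BLA, 97.8 in BLA-A, 9.47 in BLU and 13.9 in BLU-A (2.63). Slc2a1, the glucose transporter GLUT1, was at 89.4 CPM in untreated cells, 177 in BLA, 498 in BLA-A, 122 in BLU and 101 in BLU-A (1.49), and there both blackberry libraries were above the other 3. Tpi1, a glycolytic isomerase, was at 123 CPM in BLA and 400.5 in BLA-A (1.70), and Pkm, the pyruvate kinase, at 1428 CPM in BLA and 2981 in BLA-A (1.06). Vegfa (0.99) and Ldha (0.93), also hypoxia targets, were just under the threshold.

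Respiratory chain genes were higher from both genomes. Of 67 nuclear subunit genes, 33 were called higher and 1 lower, with a median of 1.00. These genes are short (median 9.15 kb), and after centring 24 were called higher with a median of 0.69. Uqcr11 of complex III was at 8.69 CPM in untreated cells, 2.21 in BLA, 36.4 in BLA-A, 4.71 in BLU and 8.17 in BLU-A (3.76). Atp5mc3, a subunit of the ATP synthase ring, was at 23.0 CPM in untreated cells, 9.79 in BLA, 138 in BLA-A, 18.7 in BLU and 16.9 in BLU-A (3.75), and Ndufa4 was at 21.7 CPM in untreated cells, 8.45 in BLA, 106 in BLA-A, 16.0 in BLU and 21.8 in BLU-A (3.57). The same 3 genes were lowest in BLA. The single called lower subunit was Ndufs4 of complex I (-1.14). Some of these genes have processed pseudogenes that can share their reads.

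From the mitochondrial genome, 7 of 13 protein genes passed the filter and 6 were called higher in BLA-A (median 1.91). The others, COX2, COX3, ATP6, ATP8, ND3 and ND4L, were listed at or near 0 in every library, so the table does not show their level. ND5, the member not called, was at 3509.5 CPM in untreated cells, 1998 in BLA, 3323 in BLA-A, 2656 in BLU and 3543 in BLU-A (0.73). ND1, of complex I, was at 904 CPM in untreated cells, 503 in BLA, 6295 in BLA-A, 644 in BLU and 798 in BLU-A, 12.5-fold (95% interval 12.3 to 12.7) higher in BLA-A, and ND4, of the same complex, at 402 CPM in untreated cells, 234 in BLA, 1527 in BLA-A, 356 in BLU and 415 in BLU-A (2.71). COX1 was at 5737 CPM in untreated cells, 4004 in BLA, 15019 in BLA-A, 4640.1 in BLU and 6146 in BLU-A (1.91), CYTB at 1233 CPM in BLA and 4518 in BLA-A (1.87) and ND2 at 685 CPM in BLA and 2835 in BLA-A (2.05). The ribosomal RNAs of the same genome had the opposite sign. mt-Rnr1 was at 405 CPM in untreated cells, 337 in BLA, 3.71 in BLA-A, 431 in BLU and 357 in BLU-A, 90.9-fold (95% interval 73.3 to 115) lower in BLA-A than in BLA. mt-Rnr2 was at 543 CPM in untreated cells, 495 in BLA, 11.4 in BLA-A, 548 in BLU and 479 in BLU-A, 43.5-fold (95% interval 38.3 to 49.4) lower. In both cases BLA-A alone was low and the other 4 libraries were within a narrow range. Ribosomal RNA was removed enzymatically before library preparation, and its part in these values was not tested.

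Rn7sk and Rmrp, noncoding RNAs of the nucleus, were also far apart. Rn7sk, the 7SK RNA that holds the elongation factor P-TEFb inactive, was at 89.4 CPM in untreated cells, 74.8 in BLA, 3668 in BLA-A, 58.05 in BLU and 92.8 in BLU-A, 49.0-fold (95% interval 46.9 to 51.2) higher in BLA-A. Rmrp, the RNA of the RNase MRP particle that processes ribosomal RNA, was at 63.0 CPM in untreated cells, 68.1 in BLA, 949 in BLA-A, 51.7 in BLU and 59.8 in BLU-A, 13.9-fold (95% interval 13.3 to 14.6) higher. Neither RNA carries a poly(A) tail. In both, the 4 other libraries lay within a narrow range. These 2 do not stand for small nuclear RNAs as a class: of 12 snRNA genes kept, 1 was called higher and 3 lower (median -0.51).

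Replication-dependent histone genes, whose short transcripts also lack a poly(A) tail and are made in S phase, had one of the highest list medians, 1.67. 31 of 46 were called higher and 1 lower, against 10 and 0 in the blueberry pair. Their median GC was 57.2% and their median length 0.619 kb, and after centring 26 were called higher and 1 lower. H3c1 was at 3.65 CPM in untreated cells, 0.314 in BLA, 39.6 in BLA-A, 1.97 in BLU and 2.33 in BLU-A, 126-fold (95% interval 63.7 to 266) higher in BLA-A. H3c3 was at 14.0 CPM in untreated cells, 2.41 in BLA, 94.0 in BLA-A, 3.74 in BLU and 12.2 in BLU-A (5.02), H3c8 at 9.00 CPM in untreated cells, 2.86 in BLA, 79.2 in BLA-A, 3.19 in BLU and 12.3 in BLU-A (4.57) and H3c7 at 25.1 CPM in untreated cells, 10.1 in BLA, 159 in BLA-A, 8.24 in BLU and 20.9 in BLU-A (3.92). In these 4 H3 genes BLA and BLU were below the untreated level and BLA-A was above all others. The exception was H2ac8, at 112 CPM in untreated cells, 52.7 in BLA, 7.39 in BLA-A, 63.9 in BLU and 110.3 in BLU-A (-2.75). Histone genes of a class are close to identical in their coding sequence, so reads may be split between copies.

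Other cell cycle genes had lower list medians than the histones. Of 32 DNA replication and G1/S genes, 6 were called higher and 0 lower (median 0.53), beside 13.3% and 11.3% of all genes. After centring 3 were called higher, near the share of all centred genes called higher. The list median against untreated cells was -0.35 in BLA and 0.06 in BLA-A. Mcm5 of the replicative helicase was at 91.1 CPM in untreated cells, 66.4 in BLA, 204 in BLA-A, 81.5 in BLU and 82.6 in BLU-A (1.61), Cdk4 at 85.7 CPM in BLA and 244 in BLA-A (1.51), E2f1 at 16.9 CPM in BLA and 47.9 in BLA-A (1.48) and Pcna, the sliding clamp, at 89.8 CPM in BLA and 216 in BLA-A (1.26). Of 30 mitotic genes 6 were called higher and 0 lower, with a median of 0.18 that was -0.08 with scaling by total counts. The counts were 2 higher and 2 lower with that scaling. After centring they were 3 and 0, the former near the share of all centred genes called higher. Cdc20, the activator of the anaphase-promoting complex, was at 79.9 CPM in untreated cells, 40.8 in BLA, 113 in BLA-A, 51.8 in BLU and 69.3 in BLU-A (1.46), and cyclin genes Ccnb1 (1.26) and Ccna2 (1.21) and Birc5 (1.21) followed. Top2a, the mitotic topoisomerase, was lower in BLA-A by 1.81-fold (95% interval 1.78 to 1.84), at 1768 CPM in untreated cells, 1468 in BLA, 812 in BLA-A, 1597 in BLU and 1599 in BLU-A, which stayed under the threshold.

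Ribosomal protein genes were split. 17 of 76 were called higher and 4 lower, and the median was 0.18, or -0.07 after centring with 11 higher and 10 lower, and -0.05 with scaling by total counts. Rpl37 was at 19.0 CPM in untreated cells, 8.18 in BLA, 103 in BLA-A, 15.0 in BLU and 15.1 in BLU-A (3.58), Rpl39 at 10.2 CPM in untreated cells, 7.35 in BLA, 89.4 in BLA-A, 9.02 in BLU and 10.4 in BLU-A (3.52) and Rplp1 at 246 CPM in untreated cells, 94.1 in BLA, 969 in BLA-A, 145 in BLU and 224 in BLU-A (3.36), all with BLA-A highest. Rps28, at 2.96 CPM in BLA and 31.4 in BLA-A, had 3.21. Rps23 was the reverse, at 39.2 CPM in untreated cells, 14.5 in BLA, 2.26 in BLA-A, 19.7 in BLU and 33.3 in BLU-A (-2.44), with BLA-A lowest. Ribosomal protein genes have many pseudogenes that can take part of their reads, so single members are uncertain. Ribosome biogenesis genes, which build the particle in the nucleolus, had 7 of 26 called higher and 0 lower (median 0.48), led by Rrp12 (1.51), Bop1 (1.47), Gar1 (1.38) and Bysl (1.29). Their summed level was 5084 CPM in untreated cells, 3515 in BLA and 3821 in BLA-A, so the sum in BLA-A was under the untreated level. Of 28 splicing factors, 6 were called higher, among them the exon repressor gene Ptbp1 at 242 CPM in untreated cells, 152 in BLA, 487 in BLA-A, 183 in BLU and 221 in BLU-A (1.68), Srsf9 (1.38) and Srsf2 (1.21). The 1 called lower was Hnrnpa2b1, an abundant RNA-binding protein gene, at 1192 CPM in untreated cells, 806 in BLA, 311 in BLA-A, 989 in BLU and 1153 in BLU-A (-1.37). The median of this list was 0.13 and was -0.12 with scaling by total counts. Over all genes 13.3% were called higher and 11.3% lower. After centring 2 members of the splicing list were called higher and 1 lower.

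Immediate early genes are transcribed within minutes of a stimulus, without new protein synthesis, and include the AP-1 factors. 15 of 28 were called higher in BLA-A and 0 lower, with a median of 1.01 beside 0.22 in the blueberry pair. They are short genes (median 5.55 kb) of high GC (54.1%), and after centring 11 were called higher, with a median of 0.64. Klf2, a zinc finger factor, was at 1.99 CPM in untreated cells, 4.79 in BLA, 58.7 in BLA-A, 3.38 in BLU and 3.89 in BLU-A (3.48). Ier3, an early survival gene, was at 122 CPM in untreated cells, 92.8 in BLA, 850.2 in BLA-A, 63.3 in BLU and 107 in BLU-A (3.19). Rhob, an endosomal GTPase gene with early gene kinetics, was at 54.1 CPM in untreated cells, 54.6 in BLA, 387 in BLA-A, 40.5 in BLU and 45.0 in BLU-A (2.81), and Zfp36, whose product destabilises cytokine mRNAs, was at 37.1 CPM in untreated cells, 31.3 in BLA, 195 in BLA-A, 29.1 in BLU and 42.5 in BLU-A (2.62). In each of the 4 the BLA-A level was several times that of any other library. The AP-1 genes Junb (1.92), Jund (1.80) and Fos (1.48) were also called higher.

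The C/EBP factor gene Cebpb, which takes part in acute phase, stress and mammary programs, was one of the 10 genes with the largest fold upward. It was at 14.2 CPM in untreated cells, 11.3 in BLA, 248 in BLA-A, 14.1 in BLU and 10.8 in BLU-A, 22.0-fold (95% interval 19.7 to 24.8) higher in BLA-A. It lies at chr2:167530835-167532338 (GRCm39) and has a single exon, 1504 bases long. The 4 libraries other than BLA-A lay within a narrow range. The bone morphogenetic protein gene Bmp6 was at 3.16 CPM in untreated cells, 0.907 in BLA, 29.4 in BLA-A, 1.53 in BLU and 1.89 in BLU-A, 32.4-fold (95% interval 21.7 to 50.4) higher in BLA-A, and Ccdc38 was at 2.23 CPM in untreated cells, 0.858 in BLA, 22.2 in BLA-A, 3.48 in BLU and 1.74 in BLU-A (4.06). Plxdc2, a membrane receptor gene, had no counts in BLA and 13.8 CPM in BLA-A. It was at least 102-fold higher by the lower limit of its 95% counting interval (126-fold against a floor of 3 counts per library after TMM scaling), and it was at 0.717 to 4.01 CPM in the other 3 libraries.

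ERK output genes report on signalling through the MAP kinase cascade. 6 of 20 were called higher and 0 lower (median 0.34), with 3 higher after centring. Dusp1, a phosphatase gene induced by stress kinases, was at 34.5 CPM in untreated cells, 38.8 in BLA, 155 in BLA-A, 24.97 in BLU and 26.2 in BLU-A (1.98). The ERK phosphatase gene Dusp7 was at 39.2 CPM in BLA and 141 in BLA-A (1.83), the feedback inhibitor gene Spry2 at 35.7 CPM in BLA and 79.3 in BLA-A (1.14) and the EGF receptor ligand gene Areg at 84.1 CPM in BLA and 176 in BLA-A (1.06). The ErbB list had 2 of 14 called higher, Areg and Erbb2 (1.02), and 0 lower, a share near the 13.3% of all genes, and 0 were called higher and 0 lower with scaling by total counts. Egfr was at -0.56. Of 27 PI3K, AKT and mTOR genes 2 were called, both higher, and the list median was -0.03 (0.24 centred). Akt1, the kinase at the centre of that pathway, was at 190.1 CPM in untreated cells, 142 in BLA, 427 in BLA-A, 157 in BLU and 179 in BLU-A (1.59), and the PI3K catalytic gene Pik3ca was at -0.49.

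Inflammatory genes formed another list with BLA-A high. NF-kB factors turn on chemokines, colony-stimulating factors and their own inhibitors, and 4T1 cells are known to secrete G-CSF. 14 of 31 genes were called higher and 0 lower, with a median of 0.85 beside -0.12 in the blueberry pair. After centring 13 were called higher, with a median of 0.68. Csf3, the G-CSF gene, was at 65.1 CPM in untreated cells, 53.04 in BLA, 246 in BLA-A, 44.0 in BLU and 51.0 in BLU-A (2.20). Ccl2, the monocyte chemokine gene, was at 3.68 CPM in untreated cells, 2.45 in BLA, 28.8 in BLA-A, 5.33 in BLU and 4.36 in BLU-A (3.31), and Cxcl10 at 2.36 CPM in BLA and 10.6 in BLA-A (1.96). Lif, a cytokine of the interleukin-6 family, was at 50.3 CPM in untreated cells, 49.4 in BLA, 191 in BLA-A, 42.7 in BLU and 37.7 in BLU-A (1.94). The inhibitor genes Nfkbia, at 59.9 CPM in untreated cells, 46.1 in BLA, 141 in BLA-A, 58.3 in BLU and 49.7 in BLU-A (1.61), and Nfkbib (1.80) were higher as well. BLA-A was the highest library in all 6 of these genes, as in most genes called higher, while Tnf and Il6 were under the filter.

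Interferon-stimulated genes did not share this direction. 2 of 28 were called higher and 3 lower, with a median of -0.00359. All 5 were under 10 CPM. The higher ones were Bst2, a membrane tether of viruses (2.55), and Isg15, a ubiquitin-like modifier (1.68), and the lower ones were Usp18 (-1.93), which removes Isg15, Ifi44 (-1.50) and Zbp1 (-1.18). Among members of at least 10 CPM the folds stayed under the threshold, with Rtp4 at -0.76, Irf9 at -0.74, Oasl1 at 0.53 and Trim25 at 0.52. Of the MHC class I list, 5 of 17 were called higher and 1 lower (median 0.42, -0.16 after centring). The heavy chain gene H2-K1 was at 88.9 CPM in untreated cells, 71.4 in BLA, 304 in BLA-A, 67.4 in BLU and 81.0 in BLU-A (2.08), Cd276, a checkpoint ligand gene, at 40.7 CPM in BLA and 130.2 in BLA-A (1.67), B2m, the light chain, at 309 CPM in untreated cells, 214 in BLA, 746 in BLA-A, 273 in BLU and 314 in BLU-A (1.80), and H2-D1 at 136 CPM in BLA and 362 in BLA-A (1.41). The immunoproteasome gene Psmb8 was lower, at 25.9 CPM in untreated cells, 16.6 in BLA, 7.08 in BLA-A, 15.4 in BLU and 22.5 in BLU-A (-1.18). The heavy chain genes are similar in sequence, and reads may be split between them.

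Death and arrest genes were examined because p53 and the Bcl2 family decide survival after damage. 4T1 cells are known to lack functional p53, and the Trp53 transcript was at 71.6 CPM in untreated cells, 84.8 in BLA, 39.9 in BLA-A, 74.6 in BLU and 74.7 in BLU-A (-1.08), with BLA-A lowest. Of 19 genes, p53 included, 8 were called higher and 2 lower (median 0.36), with 8 and 2 after centring. Gadd45a, a growth arrest gene, was at 74.97 CPM in untreated cells, 82.7 in BLA, 17.0 in BLA-A, 76.0 in BLU and 94.3 in BLU-A (-2.25), with BLA-A alone low. Cdkn1a, which encodes the p21 inhibitor of cyclin-dependent kinases, was at 20.6 CPM in untreated cells, 20.2 in BLA, 73.1 in BLA-A, 22.0 in BLU and 20.7 in BLU-A (1.83). Plk3 was at 14.4 CPM in BLA and 66.7 in BLA-A (2.17), Phlda3, an AKT repressor gene, at 3.31 CPM in BLA and 16.6 in BLA-A (2.16), and Bax at 7.58 CPM in untreated cells, 6.36 in BLA, 26.9 in BLA-A, 6.90 in BLU and 5.92 in BLU-A (2.00). Of 29 Bcl2 family and caspase genes, 3 were called higher and 0 lower, a share near the 13.3% of all genes. The pore-forming pair Bak1, at 29.6 CPM in untreated cells, 17.0 in BLA, 110.5 in BLA-A, 25.9 in BLU and 27.2 in BLU-A (2.66), and Bax were the largest, and the adaptor gene Fadd (1.04) was the remaining one. No caspase passed the threshold, the nearest being Casp9 (0.94), and Bcl2 itself was at 133 CPM in untreated cells, 244 in BLA, 142 in BLA-A, 251 in BLU and 198 in BLU-A (-0.77).

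The epithelial genes that define the line were higher for 5 of 12 members and lower for 0 (median 0.95), with 2 called higher after centring. Cldn4, a tight junction claudin, was at 16.6 CPM in untreated cells, 13.4 in BLA, 126 in BLA-A, 12.7 in BLU and 17.3 in BLU-A (3.18), and BLA-A alone was high. The keratin genes Krt8, at 269 CPM in untreated cells, 173 in BLA, 459 in BLA-A, 194 in BLU and 210.0 in BLU-A (1.40), and Krt19, at 11.2 CPM in untreated cells, 17.7 in BLA, 47.6 in BLA-A, 11.2 in BLU and 8.24 in BLU-A (1.40), and Cldn7 (1.33) and Krt7 (1.14) were also called. Epcam was at 49.4 CPM in BLA and 41.96 in BLA-A and Tjp1 at 249 CPM in BLA and 277 in BLA-A, neither called. Of mammary lineage factors, 3 of 19 were called higher and 1 lower, a higher share near the 13.3% of all genes. Sox9, a progenitor factor, was at 113 CPM in untreated cells, 119 in BLA, 332 in BLA-A, 114 in BLU and 109 in BLU-A (1.48), and the epithelial factor Elf3 at 1.92 CPM in BLA and 15.9 in BLA-A (2.76).

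Mesenchymal genes had a median of -0.33, which was 0.06 after centring, with 4 of 15 called higher and 2 lower. With members of at least 10 CPM the median was 0.86, so the list had no stable direction. Sparc, a secreted collagen-binding protein gene, was at 92.0 CPM in untreated cells, 57.7 in BLA, 246 in BLA-A, 66.3 in BLU and 76.5 in BLU-A (2.08), and the repressor gene Snai1 at 19.8 CPM in untreated cells, 12.9 in BLA, 34.7 in BLA-A, 14.8 in BLU and 22.7 in BLU-A (1.39). S100a4 (1.18) and Itgb3 (1.07) were the other called higher members, and Prrx1 (-1.02) and Acta2 (-1.58) the lower ones. Vim, the intermediate filament gene of mesenchymal cells, had the largest difference downward in CPM, from 3822 in BLA to 2168 in BLA-A, 1.76-fold (95% interval 1.74 to 1.78) lower, with 3311 to 3835 CPM in the other 3 libraries. Fn1, fibronectin, was among the largest gains in CPM, at 4344 CPM in untreated cells, 4439.5 in BLA, 8063 in BLA-A, 4350.4 in BLU and 4338 in BLU-A, 1.82-fold (95% interval 1.80 to 1.83) higher. Neither reached the threshold.

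Matrix and protease genes were among the lists with more called members. 11 of 33 collagen, laminin and integrin genes were called higher and 0 lower (median 0.56). This list holds long genes (median 87.4 kb), and its centred median was 0.64, with 11 higher and 1 lower. Itga3, a laminin receptor gene, was at 739.6 CPM in untreated cells, 582 in BLA, 2018 in BLA-A, 616 in BLU and 729.7 in BLU-A (1.79). Hspg2, the basement membrane proteoglycan perlecan, was at 399 CPM in untreated cells, 419 in BLA, 1355 in BLA-A, 341 in BLU and 362 in BLU-A (1.69), Lama5 at 570.2 CPM in BLA and 1715 in BLA-A (1.59) and Col6a1 at 9.96 CPM in BLA and 33.4 in BLA-A (1.69). Col12a1 had the largest fold, at 5.59 CPM in untreated cells, 1.54 in BLA, 12.3 in BLA-A, 2.13 in BLU and 6.78 in BLU-A (2.65). Of 24 proteases and inhibitors, 11 were called higher and 0 lower (median 0.95), and 11 after centring. Mmp9, the gelatinase gene, was at 196 CPM in untreated cells, 142 in BLA, 615 in BLA-A, 179.5 in BLU and 175 in BLU-A (2.11). Timp1, its inhibitor, was at 28.2 CPM in untreated cells, 15.0 in BLA, 81.5 in BLA-A, 23.5 in BLU and 23.3 in BLU-A (2.40), and Plaur, the urokinase receptor gene, at 57.1 CPM in BLA and 177 in BLA-A (1.63). The lysosomal protease gene Ctsd, also in this list, is given above, and both proteases and inhibitors were among the called genes.

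Actin genes, which respond to SRF, had 8 of 29 called higher and 2 lower (median 0.66, 0.47 centred). Actb was at 5002 CPM in untreated cells, 2838 in BLA, 6388 in BLA-A, 3497 in BLU and 4365 in BLU-A, 2.25-fold (95% interval 2.23 to 2.27) higher, so this common reference gene was not level between the libraries. Tagln2 (2.26), Pfn1, profilin, at 358 CPM in untreated cells, 198 in BLA, 748 in BLA-A, 272 in BLU and 341 in BLU-A (1.91), Rhoa (1.74) and Actg1 (1.68) had the largest folds. The lowest fold was that of Acta2 (-1.58), which is also in the mesenchymal list. With a pseudocount of 2, 0 members were called lower. Lgals1, the galectin gene, was at 1453 CPM in untreated cells, 838 in BLA, 2894 in BLA-A, 992 in BLU and 1377 in BLU-A (1.79). In the TGF-beta pathway 6 of 31 were called higher and 0 lower (median 0.30, 0.28 centred), beside 13.3% and 11.3% of all genes. The ligand gene Tgfb1 was at 74.7 CPM in untreated cells, 51.7 in BLA, 207 in BLA-A, 63.4 in BLU and 68.1 in BLU-A (1.99), the target Id1 at 10.9 CPM in untreated cells, 2.97 in BLA, 13.8 in BLA-A, 5.64 in BLU and 11.2 in BLU-A (2.04) and the activin gene Inhba at 38.0 CPM in BLA and 106 in BLA-A (1.47), while the signal transducer Smad3 was at 783 CPM in BLA and 429.7 in BLA-A (-0.86). YAP and TEAD genes had 2 of 20 called higher, Ccn1, at 209 CPM in untreated cells, 163 in BLA, 504 in BLA-A, 173 in BLU and 200.04 in BLU-A (1.63), and F3 (1.43), and 0 lower, a share under the background.

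Smaller lists were mixed, and the clock counts were near the shares over all genes, 13.3% called higher and 11.3% lower. Of 9 S100 genes 2 were called higher, S100a11 (1.43) and S100a4, and 1 lower. Clock genes had 2 of 18 called higher, Nr1d1 at 14.8 CPM in BLA and 38.8 in BLA-A (1.36) and Per1 at 11.4 CPM in untreated cells, 21.7 in BLA, 49.2 in BLA-A, 14.5 in BLU and 14.9 in BLU-A (1.16), and 2 lower, among them Per3 (-1.03), and their median was 0.00261. In the cadherin list 6 of 25 were called higher and 7 lower. Its median was 0.15, or -0.11 with members under 3 counts placed at the floor and -0.07 with scaling by total counts, so it has no stable direction. Pcdh1 (1.95) and Celsr1 (1.81) were higher and Pcdh9 was lower, at 17.8 CPM in BLA and 6.87 in BLA-A (-1.31). E-cadherin, Cdh1, was at 121 CPM in untreated cells, 123 in BLA, 246 in BLA-A, 133 in BLU and 125 in BLU-A, a log2 fold change of 1.000, just short of the threshold.

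Long genes known for their use in neurons were lower in BLA-A. 17 of 32 long neuronal genes, which encode adhesion and synapse proteins and have a median length of 1404 kb, were called lower and 1 higher. Their median was -1.01, or -1.27 with members under 3 counts placed at the floor. After centring 13 were called lower, with a median of -0.56. Robo2, an axon guidance receptor gene, was at 12.2 CPM in untreated cells, 10.6 in BLA, 0.942 in BLA-A, 12.0 in BLU and 3.45 in BLU-A (-2.94), Pcdh15 at 44.0 CPM in untreated cells, 34.8 in BLA, 9.97 in BLA-A, 37.3 in BLU and 38.0 in BLU-A (-1.75) and Ptprt at 14.7 CPM in untreated cells, 12.3 in BLA, 4.24 in BLA-A, 8.92 in BLU and 7.69 in BLU-A (-1.44). In all 3, BLA-A was the lowest library. Over the whole list the median log2 fold change against untreated cells was -0.99 in BLA and -2.13 in BLA-A. The typical member was therefore already lower under the plain extract. The single called higher member was Cdh12, at 1.45 CPM in BLA and 5.50 in BLA-A.

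Further long genes were at levels in BLA-A far under those of the other 4 libraries. Tmtc2, of the endoplasmic reticulum, lies at chr10:105023524-105410312 (GRCm39) and was at 161 CPM in untreated cells, 218 in BLA, 2.46 in BLA-A, 143 in BLU and 113 in BLU-A, 88.5-fold (95% interval 67.7 to 118) lower in BLA-A. Dok6, an adaptor of receptor tyrosine kinases, was at 39.4 CPM in untreated cells, 37.8 in BLA, 0.243 in BLA-A, 40.0 in BLU and 32.2 in BLU-A, 156-fold (95% interval 70.9 to 513) lower. Epha5, an ephrin receptor gene, was at 359.7 CPM in untreated cells, 212 in BLA, 9.88 in BLA-A, 302 in BLU and 309.7 in BLU-A, 21.4-fold (95% interval 18.7 to 24.6) lower. Adgrb3, an adhesion receptor gene, was at 7.91 CPM in untreated cells, 22.0 in BLA, 0.319 in BLA-A, 3.20 in BLU and 1.41 in BLU-A (-4.78), and Tenm3, a teneurin gene, at 23.7 CPM in untreated cells, 43.7 in BLA, 1.95 in BLA-A, 10.0 in BLU and 12.0 in BLU-A (-4.18), and in these last genes BLA was also well above the other libraries. The pseudogene Rpl13-ps6 was at 50.2 CPM in untreated cells, 17.2 in BLA, 0.243 in BLA-A, 18.2 in BLU and 60.4 in BLU-A (-4.57), and its reads can be shared with its parent gene.

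**Figure D5:**
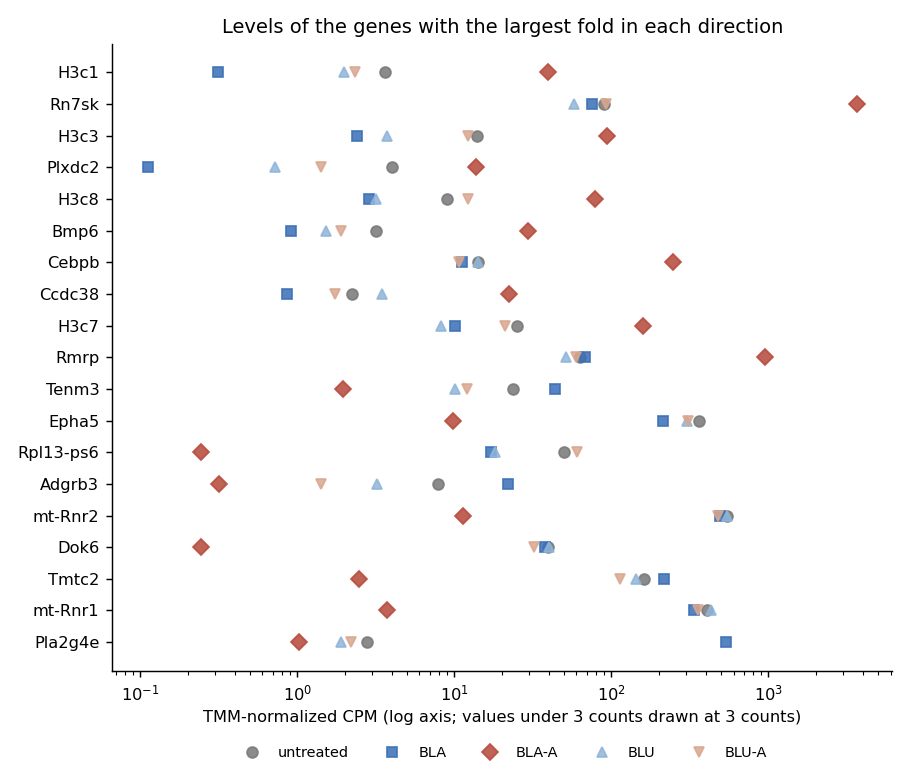
Levels in the 5 libraries, in TMM-normalized CPM on a log axis, of the named genes with the largest fold in each direction; values under 3 counts are drawn at 3 counts. In most rows BLA-A (red diamonds) lies apart from the other 4 libraries, and in the row of Pla2g4e it is BLA (blue squares) that lies apart, at 537 CPM.

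The largest fold of all belonged to Pla2g4e, a cytosolic phospholipase A2 gene at chr2:119996893-120076084 (GRCm39), and there BLA was the library that stood apart. It was at 2.79 CPM in untreated cells, 537 in BLA, 1.02 in BLA-A, 1.90 in BLU and 2.19 in BLU-A, 528-fold (95% interval 354 to 855) lower in BLA-A than in BLA. The BLA-A level was close to those of the other 3 libraries. The gene overlaps an annotated gene on the opposite strand and another on its own strand, and reads of the neighbours could not be separated here.

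Among abundant genes, Cmss1 and Filip1l, which overlap on opposite strands, were lower by a large amount. Cmss1 was at 1587 CPM in untreated cells, 1676 in BLA, 201 in BLA-A, 1191 in BLU and 1210.4 in BLU-A, 8.36-fold (95% interval 8.10 to 8.62) lower in BLA-A, and Filip1l at 1310.2 CPM in untreated cells, 1147 in BLA, 158 in BLA-A, 865 in BLU and 1025 in BLU-A, 7.27-fold (95% interval 7.02 to 7.53) lower. The ratio of Filip1l to Cmss1 was 0.685 in BLA and 0.787 in BLA-A, so they moved as 1 signal and the strand it comes from cannot be told apart. Whether ribosomal RNA reads take part in this signal was not tested, so it may not stand for either gene. Dst, a giant cytolinker gene, was at 1895 CPM in untreated cells, 2702 in BLA, 1553 in BLA-A, 2373 in BLU and 2007 in BLU-A (-0.80), Hmga2, an oncofetal chromatin gene, at 1029.6 CPM in untreated cells, 2605 in BLA, 1939 in BLA-A, 2486 in BLU and 2041 in BLU-A (-0.43) and Maml2, a Notch coactivator gene, at 417 CPM in untreated cells, 1144 in BLA, 595 in BLA-A, 1059.9 in BLU and 824 in BLU-A (-0.94). In these 3 genes BLA was the highest of the 5 libraries, and none of them passed the threshold.

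Nuclear long noncoding RNAs were lower in BLA-A for 4 of 8 members and higher for 0 (median -0.97, -0.75 centred). Neat1, the scaffold of paraspeckles, was at 189 CPM in untreated cells, 659 in BLA, 255 in BLA-A, 469.8 in BLU and 399.5 in BLU-A (-1.37). Mir100hg, a microRNA host transcript, was at 472 CPM in untreated cells, 850.1 in BLA, 311 in BLA-A, 798 in BLU and 713 in BLU-A (-1.45), Firre at 32.9 CPM in untreated cells, 67.7 in BLA, 22.3 in BLA-A, 54.1 in BLU and 45.0 in BLU-A (-1.58) and Pvt1, the neighbour of Myc, at 344 CPM in untreated cells, 997 in BLA, 487 in BLA-A, 895 in BLU and 678 in BLU-A (-1.03). In all 4 BLA was the highest library, and for Neat1 and Pvt1 the BLA-A level was between those of BLA and untreated cells. Malat1 was at 1581 CPM in untreated cells, 3662 in BLA, 3263 in BLA-A, 3080.4 in BLU and 2268 in BLU-A (-0.17), so the abundant RNA of nuclear speckles was not among the called genes. Gm26917, the most abundant member, was at 56177 CPM in untreated cells, 62549 in BLA, 91541 in BLA-A, 43832 in BLU and 50742 in BLU-A (0.55), also not called. It held 6.40% of all counts in BLA and 7.84% in BLA-A. Whether ribosomal RNA reads take part in its count was not tested. With Gm26917 the summed level of the list was 68952 CPM in BLA and 95969 CPM in BLA-A, so the sum mostly reflects this entry, while the median member was lower.

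With scaling by total counts, which takes no account of composition, fewer members were called higher in several of the lists above. The cytosolic heat shock list then had 4 members called higher, the proteasome list 6 and the lysosome and autophagy list 8. The ERK output list had 3 (median 0.09), the collagen, laminin and integrin list 7 and the DNA replication list 4, with 1 lower. The Bcl2 family and caspase list had 2 higher and 2 lower, the mesenchymal list 2 and 3, and the cytosolic ribosomal proteins 11 and 9. The splicing factor list had 2 higher, the actin and SRF list 5 and the TGF-beta list 6 (median 0.04). The sterol synthesis list had 10 called higher, the AP-1 and immediate early list 11, the NF-kB and cytokine list 10 and the histone list 29.

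The blueberry pair gives the same contrast of particle and extract with another berry. 79 genes were called higher in both nanoparticle libraries against their extracts, 3.37% of those called higher in the blackberry pair and 15.6% of those in the blueberry pair. In the blueberry pair 2.88% of all genes were called higher and 3.74% lower, and in the blackberry pair 13.3% and 11.3%. Both shares of genes called higher are therefore close to those over all genes. 143 were lower in both, 7.21% and 21.7%, each above the share over all genes, while 50 were higher in BLA-A and lower in BLU-A and 89 the reverse. The histones H3c3 (1.58 in the blueberry pair), H3c8 (1.80) and H3c7 (1.29) and Sdf2l1 (2.20) were called higher in both. Klf2 (0.18), Cldn4 (0.43), Calr (0.28), Fasn (0.16), Mmp9 (-0.04), Cebpb (-0.37) and Csf3 (0.21), called higher in BLA-A, were not called in BLU-A against BLU. Whether the folds of the pairs differ was not tested, since each condition has 1 library.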

How the data were processed

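Bulk RNA-seq of untreated, BLA-, BLA-A-, BLU- and BLU-A-treated 4T1 cells was used, with 3 columns per condition. The authors removed ribosomal RNA, aligned both mates as single reads to GRCm39 with STAR and deposited counts per gene, made in OmicsBox on whole genes by strand and without normalization; the submitters' processing notes name DESeq2 1.36.0. With mates merged, 1 mate of each pair falls on the other strand, so overlapping antisense genes cannot be told apart. Deposited tables of the authors' own fold changes and enrichments were not used.

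Columns of a condition agreed within sampling noise (chi-square per degree of freedom 0.0951 to 0.475) and were averaged to 1 library. Counts were scaled by TMM (edgeR 4.0.16, R 4.3.3), and genes of at least 1 CPM in any library were kept. The pseudocount was 0.5 CPM and the threshold a log2 fold change of 1. No p-value was computed. Intervals of ratios are exact conditional binomial (Clopper-Pearson, 95%). Fold calling was tested on simulated counts with sampling noise only. The simulation held no composition shift and no length or GC gradient, so it cannot show how calls hold under these. Positions, lengths and GC came from GENCODE M39 (GRCm39; 16308 genes matched by symbol) and promoters from RefSeq (GRCm38.p6).

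Members and gene lists were chosen with earlier results of these data known. Named are the first 10 genes in each direction by fold (at least 10 CPM) and by CPM difference, without predicted symbols, and up to 4 members per list by fold; others were chosen after their values were seen. Centring and the antisense filter were added after seeing the data. Some genes of these sets are not reported here.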

Additional observations from a re-analysis of the deposited data

Results flagged for a closer look

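Of the genes named by fold, by CPM difference or in the lists with at least 10 CPM, 2 were called in opposite directions in the blackberry and blueberry pairs; with 1 library per condition the difference was not tested. The pseudogene Rpl13-ps6 had a log2 fold change of -4.57 in BLA-A against BLA and 1.70 in BLU-A against BLU, at 50.2 CPM in untreated cells, 17.2 in BLA, 0.243 in BLA-A, 18.2 in BLU and 60.4 in BLU-A. The ribosomal protein gene Rpl26 had -1.16 and 1.02, at 13.2 CPM in untreated cells, 10.7 in BLA, 4.51 in BLA-A, 9.61 in BLU and 20.1 in BLU-A. Both share sequence with other copies in the genome.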

How the results depend on the processing

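The count of called genes, 4330 (2346 higher, 1984 lower), was 4345 with DESeq2 1.42.0 size factors, 4490 with scaling by total counts, 4928 with no filter, 5467 with a pseudocount of 0.1 and 3212 where the counting interval had to lie past 2-fold. It was 2460 (721 lower) with a pseudocount of 2, 2200 (548 lower) at 10 CPM in the higher library, 622 (444 higher, 178 lower) at a log2 threshold of 2, and 3037 (1140 lower) in protein-coding genes, so many lower calls are low genes or noncoding ones. In genes with no antisense partner, chosen after seeing the data, 1045 of 3903 were called (635 higher, 410 lower). After centring it was 3385 of 16308 (1578 higher, 1807 lower).

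The size of the fold of the median gene (log2), 0.55, was 0.57 with total counts, 0.62 and 0.42 with pseudocounts of 0.1 and 2, 0.48 with no filter, 0.50 at 10 CPM, 0.51 in protein-coding genes, 0.56 without antisense partners and 0.49 after centring. With 1 column of each condition left out, the count was 4326 to 4337, which shows only that the columns are subsets of 1 library.

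Of the 45 list medians, 9 changed sign with total counts, 1 with DESeq2 factors and 5 of 44 after centring. None of the 39 genes named by fold or CPM difference changed sign under any setting that gave a value. The mitochondrial genes have no centred value, since none of them matched the annotation by symbol. No paired analysis was possible because the columns of a condition are subsets of 1 library and no result comes from a test. Without replicate libraries, the spread between cultures is unknown, and preparation and treatment of BLA-A cannot be told apart.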
